A study of Homo sapiens with 8 samples.

Results

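The genes described here are 42 human genes of epidermal differentiation and the skin barrier, out of 58233 genes in a table of RNA-seq counts. They were listed by gene symbol, and each symbol matched 1 row of the table. FLG and ABCA12 were chosen by their measured rise after ionizing radiation (IR) in these same libraries, and the other 40 by what they do. The question for those 40 was whether they rose with FLG and ABCA12. The cells were MCF10A, a human breast epithelial line that does not form tumours by itself, and in every group they carried the H-Ras oncogene. Control cells and cells of RBM6-KO1 were either left untreated or given 5 Gy of X-rays and 12 h of recovery. RBM6-KO1 is 1 knockout clone, made with a pair of guide RNAs and the Cas9-D10A nickase at exon 3 of RBM6, which codes for an RNA-binding splicing factor. An effect of losing RBM6 and a trait of that clone cannot be told apart. There were 2 biological replicates per group, called A and B, and 8 libraries in all. All cells grew in medium with horse serum, EGF, hydrocortisone, cholera toxin and insulin.

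Keratinocytes leaving the basal layer of the epidermis replace their plasma membrane with the cornified envelope, a shell of proteins such as involucrin, periplakin and envoplakin that transglutaminases cross-link. Filaggrin packs the keratin filaments inside, lipids delivered and processed by ABCA12 and the epidermal lipoxygenases seal the space between cells, and kallikreins later cut the desmosomes so that the cells shed. KLF4, the grainyhead-like factors GRHL1 and GRHL3, ZNF750 and OVOL1 are transcription factors of this program. Mammary epithelial cells such as MCF10A are not a cornifying tissue.

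Most of the 42 genes were barely present. In control and RBM6-KO1 cells alike, several products of the program were not detected at this depth. KRT1, a keratin of the first suprabasal layer, and DSG1, the desmoglein of upper layers, had no count in any library. The same held for the shedding proteases KLK5, KLK6 and KLK7. Among the 40 genes listed by function, involucrin (IVL), GRHL3 and KLF4 were higher in control cells after IR, by 3.68-, 3.21- and 3.29-fold, and none was called lower. GRHL3 was the only one of them called higher in RBM6-KO1 cells as well, by 2.27-fold, while KLF4 had a 2.64-fold higher level there with an adjusted p of 0.051 (edgeR) and was called in 5 of the alternative settings that keep every library. No gene passed the test of a different response between the genotypes. Periplakin (PPL), which links the envelope to keratin filaments, was 2.83-fold lower in untreated RBM6-KO1 cells than in control cells and 3.58-fold lower after IR.

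The 250 bases upstream of the start of each gene that was higher after IR are shown here because these 5 genes were higher together, FLG and ABCA12 by the choice of the list. The sequences are from RefSeq (GRCh38.p14), written 5′ to 3′ on the strand of the gene. Capitals mark an AP-1 motif (TGANTCA, which reads the same on both strands) and a TATA box (TATAAA on the strand of the gene). AP-1 is the dimer of JUN and FOS proteins.
FLG: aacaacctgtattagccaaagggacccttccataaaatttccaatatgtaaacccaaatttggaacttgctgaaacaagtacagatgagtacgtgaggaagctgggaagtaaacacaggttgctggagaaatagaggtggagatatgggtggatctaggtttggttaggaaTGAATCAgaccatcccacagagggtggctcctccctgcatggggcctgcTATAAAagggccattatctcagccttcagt
IVL: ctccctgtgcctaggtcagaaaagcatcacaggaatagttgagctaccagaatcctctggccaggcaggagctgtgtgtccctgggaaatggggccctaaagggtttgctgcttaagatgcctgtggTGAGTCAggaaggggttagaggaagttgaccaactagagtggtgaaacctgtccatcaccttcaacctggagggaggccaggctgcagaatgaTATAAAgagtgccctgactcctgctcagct
ABCA12: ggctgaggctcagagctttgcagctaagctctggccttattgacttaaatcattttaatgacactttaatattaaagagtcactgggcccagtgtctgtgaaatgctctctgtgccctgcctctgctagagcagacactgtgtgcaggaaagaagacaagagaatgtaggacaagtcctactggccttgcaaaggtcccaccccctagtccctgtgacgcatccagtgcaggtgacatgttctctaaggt
GRHL3: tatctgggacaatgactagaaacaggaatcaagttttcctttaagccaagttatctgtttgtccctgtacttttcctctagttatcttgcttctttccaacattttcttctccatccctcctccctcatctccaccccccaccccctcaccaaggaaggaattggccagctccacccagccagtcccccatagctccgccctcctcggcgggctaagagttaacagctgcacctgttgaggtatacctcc
KLF4: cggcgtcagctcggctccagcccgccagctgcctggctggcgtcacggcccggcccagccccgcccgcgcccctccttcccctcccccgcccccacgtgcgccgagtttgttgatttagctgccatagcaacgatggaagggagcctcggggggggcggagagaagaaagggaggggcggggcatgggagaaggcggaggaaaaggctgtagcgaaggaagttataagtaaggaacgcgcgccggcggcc

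The FLG window is chr1:152325240-152325489 on the minus strand, the IVL window chr1:152908296-152908545 on the plus strand, the ABCA12 window chr2:215138627-215138876 on the minus strand, the GRHL3 window chr1:24319107-24319356 on the plus strand and the KLF4 window chr9:107489770-107490019 on the minus strand. ABCA12 and GRHL3 each have 2 RefSeq starts, and the outermost was used. FLG and IVL, which code for proteins of the same envelope, both held an AP-1 motif, which began 79 bases before the start of FLG and 123 before that of IVL. Both also held a TATA box that began 30 bases before the start. Searched on both strands, the AP-1 motif was found in 6.57% of the 35116 RefSeq windows of this length and the TATA box letters in 10.7%. The letters CACCC, part of the motif of KLF factors, occurred in the windows of FLG, ABCA12 and GRHL3 on 1 strand or the other, and in 54.7% of all windows. The grainyhead-like motif AACCGGTT was in none of the 5 windows and in 0.117% of all. The motifs did not overlap each other where they occurred. A match describes the letters of a window and nothing was measured of binding.

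The authors deposited raw counts per gene, and each library had between 15355281 and 29832009 counts on genes. Levels are given as normalised CPM, that is counts scaled to the size of the library with edgeR's TMM factors. A count of 0 allows at most 3 counts, or 0.0965 to 0.204 CPM on this scale depending on the library, and this covers counting error only. Basal epithelial markers were present, with 12 of 12 over 3 counts in every library. After IR ITGB1 was called higher in control cells (log2 fold change 1.01, adjusted p = 0.0304, edgeR) and KRT15 in RBM6-KO1 cells (1.08, adjusted p = 0.0337, edgeR). No other basal marker was called after IR. KRT14 changed by -0.90 in control and -0.96 in RBM6-KO1 cells, under 2-fold (adjusted p = 0.0359 and 0.0245, edgeR). The part of these markers in the results was not tested. Of 6 immune markers 1 at most, ITGAM, was over 3 counts in a library, and it was called higher in control cells after IR. The radiation response gene CDKN1A, a p53 target that halts the cell cycle, had 469 and 448 CPM in untreated and 1717 and 1498 in irradiated control cells, and 402 and 382 against 1605 and 1609 in RBM6-KO1 cells. The proliferation marker MKI67 changed after IR by -0.78 on the log2 scale in control cells (adjusted p = 0.0371, edgeR). In RBM6-KO1 cells it changed by -1.50 (adjusted p = 0.0022, edgeR). RBM6 mRNA was 66.8 and 68.8 CPM in untreated control and 61.5 and 63.1 in untreated RBM6-KO1 cells, so the counts per gene do not check the knockout.

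Of the 42 genes, 16 had enough counts to be tested in at least 1 comparison. In bulk RNA a lower level can be fewer cells of a type or less RNA per cell, and these cannot be told apart. The genes tested were 5 of 10 for the envelope and filaggrin (FLG, IVL, PPL, EVPL and CNFN), 1 of 4 secreted or calcium-binding proteins (SBSN), 1 of 3 transglutaminases (TGM1), 2 of 5 barrier lipid genes (ABCA12 and ALOXE3), 2 of 5 desmosomal genes (DSG3 and DSC2), 4 of 6 transcription factors (ELF3, GRHL1, GRHL3 and KLF4) and 1 of 3 keratins (KRT10). No kallikrein of the 6 was tested. The 10 genes listed at 0 in all 8 libraries were SPRR1A, SPRR3, TGM3, DSG1, KLK5, KLK6, KLK7, KRT1, KRTDAP and CALML5. Another 8 had 3 counts at most in every library, namely CERS3, CDSN, DSC1, KLK8, KLK10, KLK11, CALML3 and OVOL1. The remaining 8 (ALOX12B, PNPLA1, TGM5, SPRR1B, SPRR2A, SPRR2D, KRT13 and ZNF750) passed 3 counts in some library and were still too low to test.

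**Figure D1:**
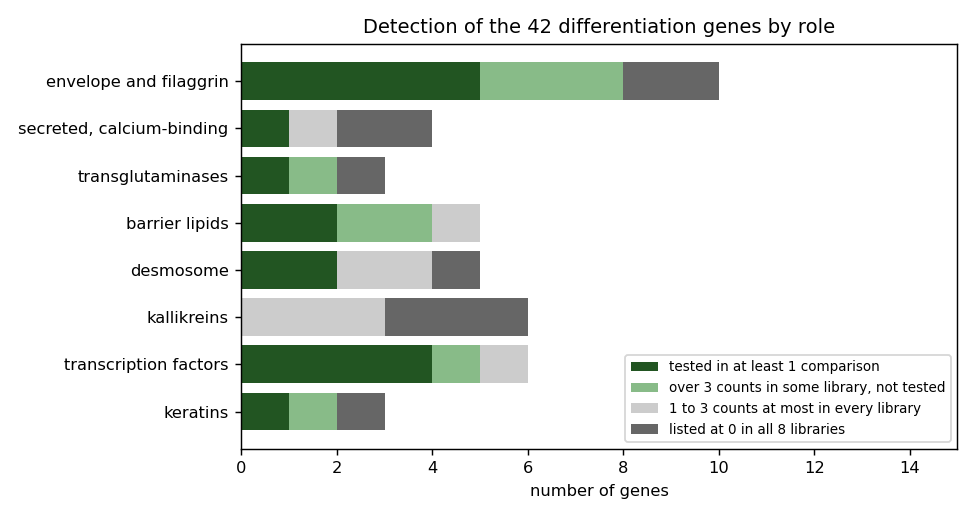
Number of genes (horizontal axis) in each of 8 roles, split by how well they were counted across the 8 libraries. Of 42 genes, 16 were tested, 8 passed 3 counts without being tested, 8 had 1 to 3 counts at most and 10 were listed at 0. All 6 kallikreins lie in the last 2 classes.

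The highest count of any untested gene was 11, for SPRR1B, a small proline-rich protein that is a cross-linked component of the envelope. Control cells gave 1 and 2 counts untreated and 7 and 11 after IR, and RBM6-KO1 cells 1 and 1 untreated and 2 and 1 irradiated. The irradiated control libraries were thus the highest, with too few counts for a test. Reads of SPRR1A and SPRR1B, or of the SPRR2 genes, may be split between near-identical copies. Added up, the 26 untested genes had 12 and 19 counts in untreated and 22 and 27 in irradiated control cells, against 10 and 24 in untreated and 17 and 18 in irradiated RBM6-KO1 cells. Scaled, these sums were 0.736, 1.02, 1.42 and 0.868 CPM in the control and 0.562, 1.63, 0.876 and 0.881 CPM in the RBM6-KO1 libraries, and the untreated and irradiated libraries overlapped in both genotypes.

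Per kilobase of exon, the tested genes of untreated control cells were led by a plakin, a keratin and a desmoglein. Envoplakin (EVPL), the partner of periplakin in the envelope, had the highest level, 10.5 CPM per kb. KRT10, the suprabasal keratin that pairs with KRT1, followed with 9.93, DSG3, a desmoglein of basal cells, with 7.31 and PPL with 2.45. FLG was the lowest of the 16, with 0.0275 CPM per kb, and it reached 0.535 in irradiated control cells, still below ABCA12 at 4.35, GRHL3 at 1.27 and IVL at 1.20 CPM per kb in the same cells. In this order the libraries of EVPL and KRT10 overlapped, as did those of PPL, CNFN and ALOXE3, of SBSN and TGM1, of GRHL3 and IVL, and of KLF4 and ELF3, so those neighbours did not differ beyond their spread.

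FLG codes for profilaggrin (ENSG00000143631, GRCh38 chromosome 1, 152302165 to 152325239, minus strand). It had 8 and 4 counts in untreated control cells and 79 and 267 after IR, which is 0.490 and 0.214 against 5.11 and 8.58 CPM. The RBM6-KO1 libraries had 1.41 and 0.612 CPM untreated and 2.27 and 7.14 after IR, from 25, 9, 44 and 146 counts. The log2 fold change was 4.30 in control and 2.17 in RBM6-KO1 cells, and no test is given because these values put FLG on the list. The untreated and irradiated libraries did not overlap in either genotype, and the RBM6-KO1 value rested on replicate B: without that irradiated library it was 1.13, and without untreated replicate A it was 2.93. Over all such omissions the control value ran from 3.80 to 4.95. FLG-AS1, an antisense RNA whose exons overlap FLG on the other strand, had 8 and 7 counts untreated and 62 and 124 after IR in control cells, and 14 and 2 against 79 and 78 in RBM6-KO1 cells. Whether the reads were counted by strand is not given in the sources used here, so reads of FLG and FLG-AS1 cannot be told apart. FLG also has long near-identical repeats, some shared in kind with its neighbour HRNR, and its counts are uncertain for that reason too.

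ABCA12 codes for the transporter that loads lipids into lamellar granules, the vesicles that empty into the skin's intercellular space. It had 7.72 and 8.36 CPM in untreated control cells and 33.6 and 50.2 after IR. The RBM6-KO1 libraries had 8.83 and 8.29 CPM untreated and 21.5 and 31.7 after IR. Its log2 fold change was 2.37 in control cells (2.05 to 2.65 with 1 library left out) and 1.62 in RBM6-KO1 cells (1.32 to 1.89), again with no test. The irradiated libraries stood apart from the untreated ones in both genotypes, and those of the control lay above those of RBM6-KO1. Between genotypes, a contrast that did not choose the list, neither gene passed the test. After IR the log2 difference of RBM6-KO1 from control was -0.66 for ABCA12 (SE, the standard error, 0.27; adjusted p = 0.438 from the quasi-likelihood test of edgeR, adjusted by the method of Benjamini and Hochberg over all genes) and -0.55 for FLG (SE 0.50, adjusted p = 0.811, edgeR).

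**Figure D2:**
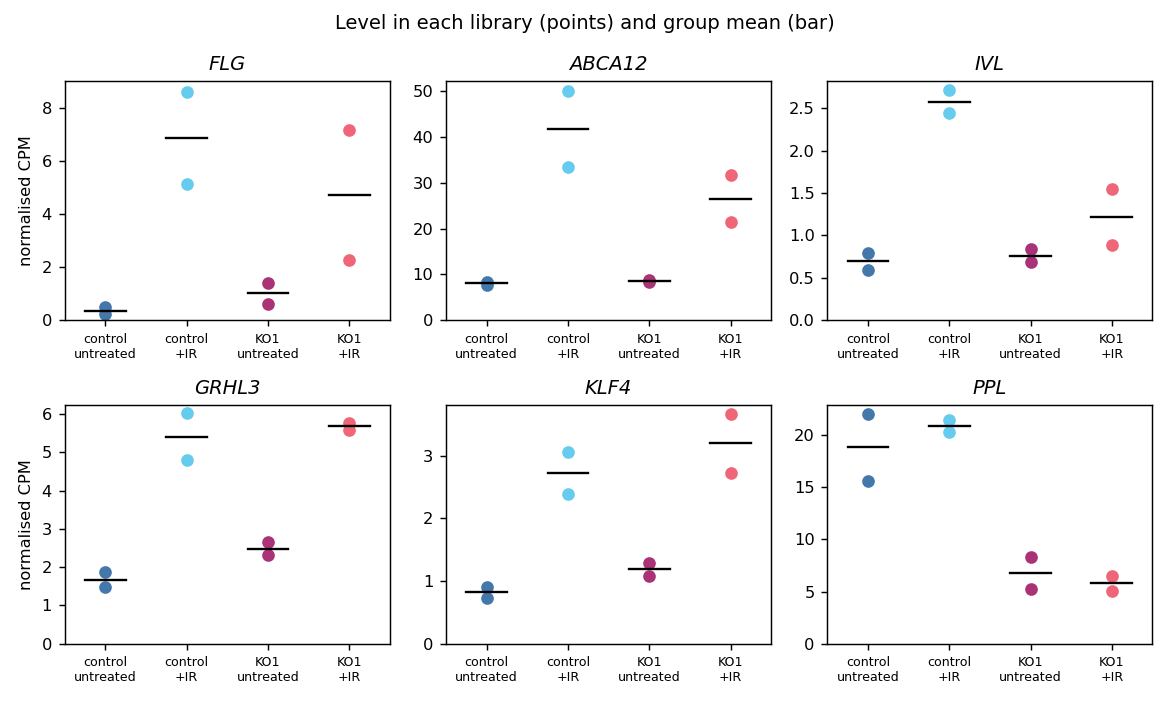
Normalised CPM (vertical axes, starting at 0) of FLG, ABCA12, IVL, GRHL3, KLF4 and PPL in each of the 8 libraries (points), with the mean of the 2 libraries of a group as a bar. FLG, ABCA12, IVL, GRHL3 and KLF4 are higher in both irradiated control libraries, and PPL is lower in all 4 RBM6-KO1 libraries.

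In irradiated against untreated control cells, 14 of the 40 genes listed by function were tested. The threshold for a call was an adjusted p below 0.05 together with a change of 2-fold or more. By this rule 3 of the 40 were higher, or 7.5%, beside 1.68% of the 15412 genes tested, and 0 were lower, beside 1.91%. These shares have different denominators, because 26 of the 40 were never tested. Of the 14, 8 had a log2 fold change above 0 and 6 below, with a median of 0.09 beside 0.02 over all genes tested. The only 1 lower at an unadjusted p under 0.05 in edgeR was EVPL, and DESeq2 called 2 higher and 0 lower. Markers of other cells also differed. The luminal list summed to 728 and 782 CPM untreated and 659 and 474 after IR. The fibroblast list, with 3 to 6 of 8 genes over 3 counts, summed to 90.8 and 86.5 against 99.0 and 120.5. The immune list, with 1 of 6 at most, summed to 0.184 and 0.214 against 1.16 and 0.739. ITGAM, an immune marker, had 0 and 2 counts untreated and 16 and 23 after IR. PDGFRB, a fibroblast marker, had 5 and 1 counts untreated and 17 and 53 after IR. Both were called higher (adjusted p = 0.0299 and 0.0264, edgeR), having entered the test through the irradiated libraries. The fibroblast markers DCN, COL1A1 and FAP were tested and not called. The part of these markers in the results was not tested.

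IVL, the involucrin gene, codes for an early scaffold of the envelope. It had 0.797 and 0.589 CPM in untreated and 2.72 and 2.44 in irradiated control cells, from 13, 11, 42 and 76 counts. In RBM6-KO1 its levels were 0.843 and 0.679 CPM untreated and 1.55 and 0.881 after IR. The log2 fold change was 1.88 in control cells (SE 0.40, adjusted p = 0.0247, edgeR) and 0.64 in RBM6-KO1 cells (SE 0.50, adjusted p = 0.408, edgeR). Irradiated libraries were above untreated ones in both genotypes, widely so in the control and narrowly in RBM6-KO1. The control call was lost without untreated replicate B (log2 fold change 1.68, adjusted p = 0.142, edgeR). The difference between the genotypes' responses was -1.23 on the log2 scale, with an unadjusted p of 0.0662 and an adjusted p of 1.0 from edgeR's interaction test.

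GRHL3 codes for a grainyhead-like factor needed for barrier formation. It had 1.47 and 1.88 CPM in untreated and 4.79 and 6.01 in irradiated control cells. In RBM6-KO1 its levels were 2.31 and 2.65 CPM untreated and 5.77 and 5.58 after IR. Irradiated libraries lay above untreated ones in both genotypes, by a log2 fold change of 1.68 in control (SE 0.32, adjusted p = 0.0153, edgeR) and 1.18 in RBM6-KO1 cells (SE 0.27, adjusted p = 0.0409, edgeR). Leaving out untreated control replicate A gave 1.50 with an adjusted p of 0.055, and leaving out untreated RBM6-KO1 replicate B gave 1.29 with an adjusted p of 0.056, both from edgeR.

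KLF4 codes for a Krüppel-like factor of suprabasal cells. It had 0.736 and 0.911 CPM in untreated and 2.39 and 3.05 in irradiated control cells, and 1.29 and 1.09 against 2.73 and 3.67 in RBM6-KO1 cells. The groups did not overlap in either genotype. The log2 fold change was 1.72 in control (SE 0.39, adjusted p = 0.0291, edgeR) and 1.40 in RBM6-KO1 cells (SE 0.36, adjusted p = 0.051, edgeR), so KLF4 was just outside the threshold in RBM6-KO1 cells. The control call was lost with DESeq2 (adjusted p = 0.0583) and in edgeR without untreated replicate A (adjusted p = 0.119), without untreated replicate B (adjusted p = 0.0706) or without irradiated replicate B (adjusted p = 0.0918).

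The desmosomal genes had changes under 2-fold. DSG3 had 43.1 and 38.5 CPM in untreated and 57.9 and 81.4 in irradiated control cells, a change of 0.77 on the log2 scale (SE 0.20, adjusted p = 0.0459, edgeR). By the adjusted p alone it was the fourth of the 40 genes to be higher, beside 2.81% of all genes tested. DSC2, a desmocollin of simple and basal epithelia, had a log2 fold change of 0.75 with an adjusted p of 0.0797 from edgeR, from 22.0 and 17.5 CPM untreated and 27.3 and 39.2 after IR. The irradiated libraries were above the untreated ones for both genes, with replicate B the highest.

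The other tested genes of the control cells did not pass. GRHL1, which regulates desmosomal genes, had a log2 fold change of 1.47 with an adjusted p of 0.0723 (edgeR), from 0.736 and 0.482 CPM untreated to 1.49 and 1.87 after IR. EVPL had 72.4 and 82.7 CPM untreated and 54.5 and 48.0 after IR, a log2 fold change of -0.61 with an adjusted p of 0.0591 (edgeR). PPL, its partner, changed by 0.14 and ALOXE3, a lipoxygenase that makes barrier lipids, by 0.04 on the log2 scale. TGM1, the transglutaminase that cross-links the envelope, changed by -0.08, KRT10 by -0.41, SBSN, a secreted protein of suprabasal cells, by -0.60, ELF3, an ETS factor of epithelia, by -0.72 and the envelope protein CNFN by -0.81, none of them past the threshold. KRT10-AS1 and ELF3-AS1 have exons on the other strand of KRT10 and ELF3, with 1288 and 161 counts in all, and those reads cannot be told apart without strand either.

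In RBM6-KO1 cells, 12 of the 40 genes were tested between irradiated and untreated cells. GRHL3 alone was called higher, or 2.5% of the 40 beside 1.13% of the 15598 genes tested, and 0 were called lower, beside 1.97%. As in control cells these shares have different denominators, because only 12 of the 40 were tested. The median log2 fold change was 0.17, with 6 genes above 0 and 6 below, and -0.01 over all genes tested. At an unadjusted p under 0.05 edgeR had 4 higher and 2 lower, with no share of all genes at that threshold beside them. DESeq2 called 1 higher and 0 lower. EVPL was lower by the adjusted p alone, a share of all genes of 3.23%. It had 58.0 and 69.4 CPM untreated and 40.6 and 41.7 after IR, a log2 fold change of -0.64 (SE 0.16, adjusted p = 0.0494, edgeR), beside -0.61 in control cells. DSC2 had a log2 fold change of 0.71 with an adjusted p of 0.0574 and DSG3 one of 0.42 with an adjusted p of 0.133, both from edgeR.

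**Figure D3:**
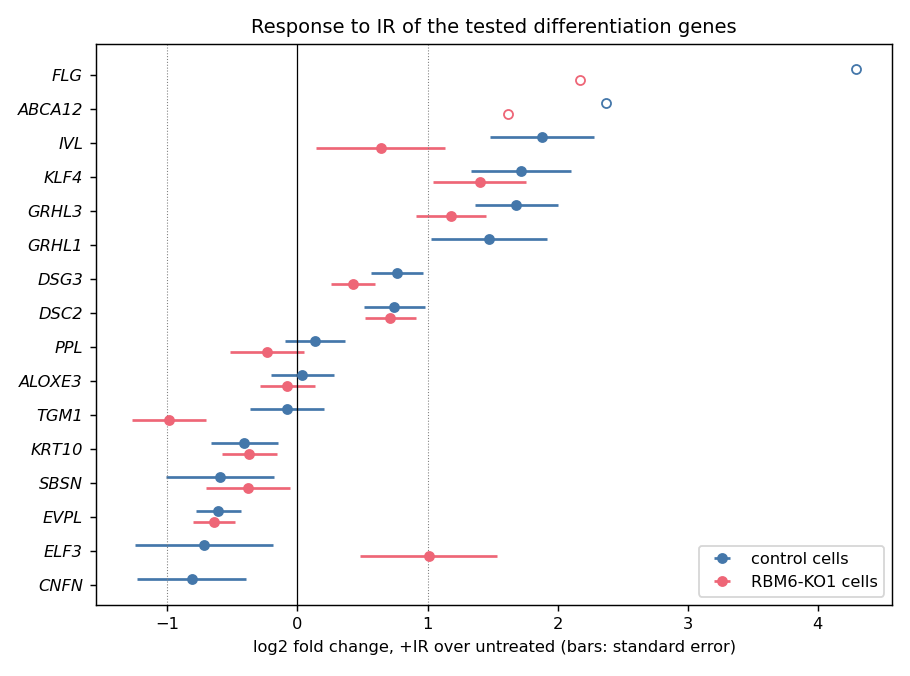
Log2 fold change of irradiated over untreated cells (horizontal axis) for the 16 genes tested, in control and RBM6-KO1 cells. Filled points carry the standard error (SE) as a bar, and open points are FLG and ABCA12, whose values chose the list and have no test. IVL, KLF4, GRHL3 and GRHL1 lie above 1 in control cells, and CNFN and GRHL1 have no RBM6-KO1 point. Among the filled points, those of ELF3, IVL and TGM1 lie far apart, with differences that did not pass after adjustment.

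No gene, of this list or any other, passed the test of a different response in the 2 genotypes. edgeR's interaction test called 0 of 16549 genes after adjustment (0%), with 306 or 1.85% at an unadjusted p under 0.05, and DESeq2 called 0 with 164 at an unadjusted p under 0.05. TGM1 was the only one of the 14 tested genes listed by function with an unadjusted p under 0.05. It had 3.74 and 4.61 CPM in untreated and 3.94 and 4.02 in irradiated control cells, against 4.44 and 4.55 in untreated and 2.47 and 2.10 in irradiated RBM6-KO1 cells. The irradiated RBM6-KO1 libraries were the lowest 2 of the 8. The difference of the responses was -0.90 on the log2 scale (SE 0.35, unadjusted p = 0.0261, adjusted p = 1.0, edgeR), and within RBM6-KO1 cells the log2 fold change was -0.99 with an adjusted p of 0.0661 (edgeR). ELF3 had 0.736 and 1.71 CPM untreated and 0.453 and 0.965 irradiated in control cells, and 0.787 and 0.340 against 1.19 and 1.17 in RBM6-KO1 cells, a difference of 1.75 with an unadjusted p of 0.0562 (edgeR). Of the 14 genes, 11 had a difference below 0, with a median of -0.32 beside -0.01 over all genes tested. For FLG and ABCA12 the differences were -2.12 and -0.75, with no test.

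Between genotypes, PPL was the 1 gene called. It had 15.6 and 22.1 CPM in untreated and 21.5 and 20.4 in irradiated control cells, against 5.23 and 8.36 in untreated and 5.10 and 6.51 in irradiated RBM6-KO1 cells. Every RBM6-KO1 library was below every control library. The log2 difference was -1.50 untreated (SE 0.25, adjusted p = 0.0011, edgeR) and -1.84 after IR (SE 0.22, adjusted p = 0.0151, edgeR), and it passed with each library left out. In untreated cells this was 1 lower and 0 higher of the 42 genes, of which 14 were tested, beside 1.97% lower and 1.16% higher of all genes tested. After IR it was 1 lower and 0 higher, with 16 tested, beside 0.815% lower and 0.353% higher. At an unadjusted p under 0.05 in edgeR, 3 were lower and 0 higher in untreated cells, and 7 lower and 0 higher after IR. No share of all genes at that threshold is given beside these counts, so they are not read as a result about the list. CNFN, counted as lower in both, entered the test after IR through the control libraries, so it could only be lower there. It had 13 and 8 counts in untreated RBM6-KO1 cells, and GRHL1 had 6 and 12 in irradiated ones. Those 2 tests therefore also leaned on the control libraries to pass the filter. DESeq2 called 1 lower and 0 higher in each comparison. The median difference of the tested genes was 0.02 in untreated cells and -0.43 after IR, beside 0.01 and 0.02 over all genes. Markers of other cells differed along with PPL. Of 12 luminal epithelial markers, 6 to 8 were over 3 counts in a library and KRT19 had 3 counts at most. The luminal list summed to 728 and 782 CPM in untreated control and 459 and 578 in untreated RBM6-KO1 cells, and to 659 and 474 against 443 and 365 after IR. EPCAM, 1 of the luminal markers, was called lower in RBM6-KO1 cells by 3.46-fold untreated (adjusted p = 4.43e-05, edgeR) and 3.52-fold after IR (adjusted p = 0.0151, edgeR). The fibroblast list summed to 86.5 to 120.5 CPM in control and 120.8 to 216 in RBM6-KO1 libraries, most of it DCN, with mean levels of 68.0 and 128 CPM untreated and 86.2 and 185 after IR. FAP, on the same list, was 3.01-fold lower in untreated RBM6-KO1 cells (adjusted p = 0.00503, edgeR), and COL1A1 had lower levels there that did not pass. Their part in the PPL result was not tested.

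The partner of PPL did not pass the test. EVPL differed by -0.30 untreated and -0.31 after IR on the log2 scale, with adjusted p values of 0.32 and 0.6 (edgeR). CNFN had 1.29 and 1.61 CPM in untreated and 0.776 and 0.868 in irradiated control cells, and 0.731, 0.544, 0.309 and 0.0978 CPM in the RBM6-KO1 libraries in the same order, from 13, 8, 6 and 2 counts. All 4 were below the control libraries of the same treatment, and neither difference passed (-1.18 with adjusted p = 0.194 and -2.004 with adjusted p = 0.259, edgeR). GRHL1 had 0.309 and 0.587 CPM in irradiated RBM6-KO1 cells, below the 1.49 and 1.87 of the control, a log2 difference of -1.89 with an adjusted p of 0.143 (edgeR). IVL was lower by 1.07 on the log2 scale after IR, also short of the threshold (adjusted p = 0.334, edgeR).

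Replicates differed by gene length, which bears on the longest genes. Over 12251 genes, the log2 ratio of replicate B to A in irradiated control cells had a Spearman rho of 0.484 with exonic length across genes, and its median ran from -0.399 in the shortest 10% of genes to 0.294 in the longest 10%. In irradiated RBM6-KO1 cells rho was 0.371, and in untreated control and RBM6-KO1 cells it was -0.204 and -0.275. The fold change after IR itself had a rho of 0.288 with length in control and 0.271 in RBM6-KO1 cells. FLG, with 12793 bases of exon, DSC2, with 12501, and ABCA12, with 9614, are the longest of the tested genes. For each of them replicate B was the higher of the irradiated pair in both genotypes. IVL has 2152 bases of exon, KLF4 3662 and GRHL3 4266. The median log2 fold change after IR was -0.275 in the shortest and 0.198 in the longest 10% of genes in control cells, and -0.39 and 0.146 in RBM6-KO1 cells. The part of gene length in these results was not tested.

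**Figure D4:**
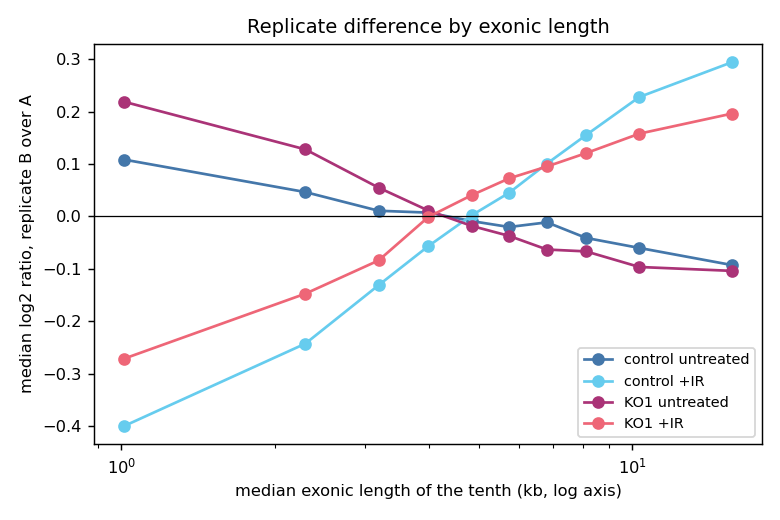
Median log2 ratio of replicate B to replicate A (vertical axis) in 10 classes of genes by exonic length (horizontal axis, kb, log scale), 1 line for each of the 4 groups. The irradiated groups climb with length, -0.399 to 0.294 for the control and -0.271 to 0.196 for RBM6-KO1, while the untreated groups fall.

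A wider list of 177 other genes of the same program, in 6 groups by role, was read the same way. In control cells after IR 90 of them were tested. At an unadjusted p under 0.05 edgeR had 29 higher and 8 lower, with no share of all genes at that threshold beside them. DESeq2 called 7 higher and 0 lower. By the rule for a call in edgeR 8 were higher and 0 lower, beside 1.68% higher and 1.91% lower of all genes tested. The median log2 fold change was 0.21, and 0.02 over all genes. The envelope group gave 5 of the 8 called higher, and all 5 had under 10 counts in both untreated libraries. They entered the test through the irradiated libraries where they were high, so they could only be called higher. LY6D, a surface protein of stratified epithelia, had 7 and 3 counts untreated and 85 and 144 after IR, a log2 fold change of 4.09 (SE 0.46, adjusted p = 0.00142, edgeR). LCE1B, a late cornified envelope gene, had 2 and 1 counts untreated and 26 and 40 after IR (adjusted p = 0.00903, edgeR), with too few untreated counts for a stable fold. LGALS7B, which codes for galectin-7, changed by 2.78, HRNR, a relative of filaggrin, by 2.25 and LCE1C by 2.70 on the log2 scale, with adjusted p values of 0.0134, 0.0196 and 0.0359 from edgeR. Reads of LCE1 genes, of LGALS7 and LGALS7B, and of HRNR may be shared with near-identical copies. The others were NOTCH1, a receptor that drives keratinocytes out of the basal layer (log2 fold change 1.24, adjusted p = 0.00388, edgeR), its ligand JAG1 (1.02, adjusted p = 0.0165, edgeR) and the tight junction gene CLDN1 (1.20, adjusted p = 0.0367, edgeR). No gene of the lipid, protease or keratin groups was called. Without irradiated replicate B the calls of HRNR, LCE1C, CLDN1 and JAG1 were lost, with adjusted p values of 0.0921, 0.0531 and 0.11 (edgeR) for the first 3 and a log2 fold change of 0.73 for JAG1. Without untreated replicate B LCE1C (1.86, adjusted p = 0.27), CLDN1 (1.06, adjusted p = 0.175) and JAG1 (adjusted p = 0.0804) were lost, and without untreated replicate A JAG1 was (adjusted p = 0.0582), all from edgeR. LCE1C also lost its call with DESeq2 (adjusted p = 0.075) and in edgeR with all 8 libraries in 1 fit (adjusted p = 0.0773), and JAG1 came under 2-fold with upper-quartile scaling (0.97) and with a replicate block (0.998). LY6D, LCE1B and LGALS7B were tested through the irradiated libraries where they were high, so leaving out libraries is no separate check of their calls. The log2 fold change of NOTCH1 ran from 1.1 to 1.377 with 1 library left out.

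In RBM6-KO1 cells 88 genes of the wider list were tested after IR, and 2 were called higher and 0 lower. Of all genes tested, 1.13% were higher and 1.97% lower. At an unadjusted p under 0.05 edgeR had 22 higher and 10 lower, with no share of all genes at that threshold beside them. DESeq2 called 2 higher and 1 lower. LY6D had 4 and 4 counts untreated and 77 and 57 after IR, a log2 fold change of 3.72 (SE 0.48, adjusted p = 0.00753, edgeR), beside 4.09 in the control. Here too LY6D entered the test through the irradiated libraries where it was high, so it could only be called higher. JAG1 changed by 1.13 (adjusted p = 0.0225, edgeR), and fell under 2-fold without untreated replicate B (0.98) or irradiated replicate B (0.92). The median log2 fold change of the list was 0.23, beside -0.01 over all genes. LCE1B had 5 and 2 counts untreated and 14 and 14 after IR, and LGALS7B 4, 11, 22 and 9 in that order, and both were lower in irradiated RBM6-KO1 than in irradiated control libraries.

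IVL, FLG, HRNR and the SPRR and LCE genes lie side by side in the epidermal differentiation complex, here chromosome 1 from 152084141 to 153262124 (GRCh38), from TCHHL1 to LORICRIN. This window was set after the values were seen and is given as a description. Of its 44 protein-coding genes, 21 were listed at 0 in all libraries and 30 had 3 counts at most in each. Without FLG, 6 were tested in control cells after IR, of which HRNR, LCE1C, LCE1B and IVL were higher, beside 1.68% of all genes tested. The first 3 of these had under 10 counts in both untreated libraries. In RBM6-KO1 cells 7 were tested and 0 called by edgeR or DESeq2, beside 1.13% of all genes called higher. Of the 7, 6 had a log2 fold change above 0, and in edgeR 2 higher and 1 lower had an unadjusted p under 0.05. LCE1B, LCE1E and LCE3D entered that test through the irradiated libraries and TCHH through the untreated ones. Each could only be called in that direction, so the counts of directions are not read as a result. The counts of the complex without FLG summed to 4.05 and 3.05 CPM in untreated and 11.96 and 10.5 in irradiated control cells, and to 4.33 and 6.66 against 7.78 and 9.15 in RBM6-KO1 cells. The irradiated libraries were above the untreated ones in both genotypes, and the irradiated ones of RBM6-KO1 lay between the untreated and irradiated control libraries. HRNR alone gave 1.18 and 2.31 CPM of the untreated and 2.32 and 4.79 CPM of the irradiated RBM6-KO1 sums. In control cells it gave 0.429 and 0.482 CPM untreated and 1.75 and 2.60 CPM after IR. The order in RBM6-KO1 cells thus leans on 1 gene, whose reads may be shared with near-identical copies.

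**Figure D5:**
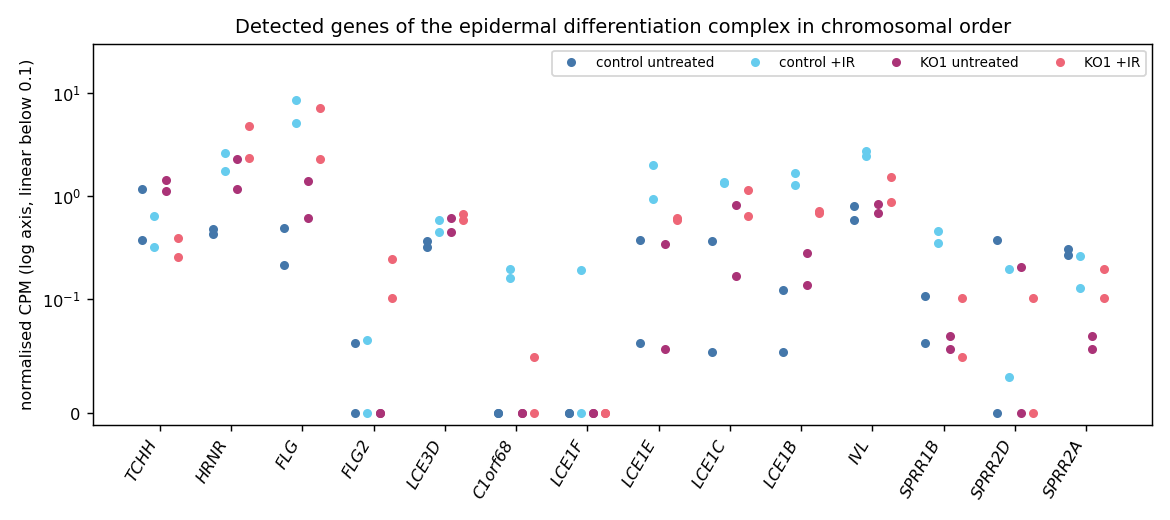
Normalised CPM (vertical axis, log scale above 0.1 and linear below) of the genes of the epidermal differentiation complex with over 3 counts in some library, in chromosomal order, 1 point per library. FLG, HRNR, LCE1C, LCE1B and IVL are higher in both irradiated control libraries than in the untreated ones, while the SPRR genes stay under 0.5 CPM.

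Between genotypes, 83 genes of the wider list were tested in untreated cells, and 3 were higher and 7 lower in RBM6-KO1 cells, beside 1.16% higher and 1.97% lower of all genes tested. The median log2 difference was -0.18, and 0.01 over all genes. KRT80, a keratin found at desmosomes, had 24.5 and 25.2 CPM in control and 3.09 and 4.89 in RBM6-KO1 cells, a difference of -2.66 (SE 0.24, adjusted p = 2.1e-06, edgeR). ST14 (matriptase) and PRSS8 (prostasin), proteases that act together in barrier formation, differed by -1.04 and -1.10, and CLDN7, a claudin, by -1.33, with adjusted p values of 0.000233, 0.00223 and 0.000848 from edgeR. The sterol transporter ABCG1 differed by -1.44 and LYPD3, a surface protein of suprabasal cells, by -1.01, and KLK1 was the other one lower. SERPINB2, a protease inhibitor of the envelope, was higher by 1.49 (adjusted p = 0.00152, edgeR), as were PI3 (elafin, 1.53) and HRNR (1.88). HRNR and KLK1 had under 10 counts in both libraries of the lower group, so each entered the test only through the group where it was high. Leaving out single libraries brought ST14, PRSS8, PI3 and LYPD3 under 2-fold with the adjusted p still passing, the lowest being -0.94 for ST14, -0.92 for PRSS8, 0.94 for PI3 and -0.82 for LYPD3. After IR 90 were tested, and KRT80 (-2.22), ST14 (-1.13) and SERPINB2 (1.47) were called in the same direction, 1 higher and 2 lower beside 0.353% higher and 0.815% lower of all genes tested. ST14 and SERPINB2 lost the call after IR without irradiated RBM6-KO1 replicate B (adjusted p = 0.146 and 0.0921, edgeR) or with at least 10 counts required in every library (0.0551 and 0.0552).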

How the data were processed

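RNA from 8 cultures was sequenced as TruSeq mRNA libraries with paired-end reads. The submitters' processing notes name STAR, DESeq2 and the build hg38, while the counting tool, the annotation version and the strandedness are not given in the sources used here. The authors deposited whole-number counts per Ensembl gene without normalization, and 0 columns belonged to no sample. Symbols and positions were taken from GENCODE v44, which held 57392 of the identifiers and lacked 841, and promoter sequences from RefSeq (GRCh38.p14).

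The counts were analysed with edgeR 4.0.16 (quasi-likelihood test, TMM, filterByExpr) in R 4.3.3, each comparison on its own libraries and over the whole table, with Benjamini-Hochberg adjustment. SE is the log2 fold change divided by the square root of F. The interaction used all 8 libraries. With 2 libraries per group a permutation test could not reach 0.05. Counts at an unadjusted p between 2 groups have no share of all genes beside them. DESeq2 1.42.0 and other settings were alternatives. The tests were checked on simulated counts. The 42 genes, the wider lists and the tests were chosen with earlier results of these data known. Genes named were FLG and ABCA12, those called, those with an unadjusted interaction p under 0.05, the highest of each role, and called genes of the wider lists (at most 8 per comparison by p). KLK1 and HRNR in RBM6-KO1, SPRR1B and the remaining tested genes were added after their values were seen.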

Additional observations from a re-analysis of the deposited data

Results flagged for a closer look

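LYPD3, a surface protein of suprabasal cells on the wider list, had a lower mean level after IR in control and a higher one in RBM6-KO1 cells. It had 16.6 and 18.4 CPM in untreated and 13.4 and 11.9 in irradiated control cells, and 9.895 and 7.54 against 9.896 and 10.9 in RBM6-KO1 cells. Both irradiated libraries were below both untreated ones in the control and above them in RBM6-KO1, there by a margin smaller than the gap between the untreated libraries. The difference of the responses was 0.72 on the log2 scale (SE 0.28, unadjusted p = 0.0275, adjusted p = 1.0, edgeR's interaction test), so it did not pass. Groups of 2 were too small to test a single library for standing apart.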

How the results depend on the processing

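In control cells after IR, 3 of the 40 genes were called. The count was 4 without a filter (GRHL1 added) or by the adjusted p alone (DSG3 added), 2 with DESeq2 (KLF4 lost), and from 1 to 6 when each library was left out, with 6 without irradiated replicate A (DSG3 and GRHL1 higher and SBSN lower as well). In RBM6-KO1 cells 1 gene was called, GRHL3. It was 2 with DESeq2 size factors, with no filter, with at least 10 counts in every library, with a replicate block and with all 8 libraries in 1 fit, each time with KLF4 added, and 2 by the adjusted p alone, with EVPL added. It ran from 0 to 3 with each library left out, with 0 without untreated replicate B and 3 without irradiated replicate A (KLF4 higher and TGM1 lower). Of the RBM6-KO1 differences, PPL was the 1 gene called in untreated cells in every setting. After IR it was joined by GRHL1 with no filter (2 genes) and by GRHL1 and IVL with a replicate block (3 genes), and it remained the 1 called with each library left out. The interaction called 0 genes of the list in every setting. The cause of these shifts was not tested. Fits without a library assume that the lone library left in a group varies like the other group. The replicate letters are not said to mark a shared day or batch, and the deviations of same-lettered libraries correlated at -0.18 between untreated and irradiated control cells, -0.26 in RBM6-KO1 cells, 0.08 between untreated and 0.35 between irradiated genotypes, so the letters were not taken as pairs. Of the values for single named genes under other settings, 0 reversed direction, and some lost the call. Those of FLG and ABCA12 after IR have no test and so no threshold to keep. Most other genes were named because they had been called, so these values are no separate check of the calls. Other normalizations moved the median of all genes by under 0.1. At this depth the 26 untested genes can neither be shown to change nor to stay.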
